A study of Homo sapiens with 32 samples.

Results

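The Sprouty and SPRED proteins are inhibitors of receptor tyrosine kinase signalling, and the 8 genes described here are SPRY1, SPRY2, SPRY3, SPRY4, SPRED1, SPRED2, SPRED3 and IL17RD. They were taken by gene name from the count tables, where each has 1 row among 57773 genes at both time points. HEK293 cells, a human embryonic kidney line, were transiently transfected with the angiotensin II type 1 receptor (AT1R, gene AGTR1) in all groups, controls included. In medium without serum, they were kept for 6 h or 24 h without stimulus (control), with 1 nmol/l angiotensin II (AII), with epidermal growth factor (EGF) at 10 µg/l, or with both (AII+EGF). Counts of 4 libraries per condition and time were analysed, except for AII+EGF after 24 h with 3. Transient transfection leaves a mixed culture in which the share of cells that carry the receptor is not given by the labels. In RNA of whole cultures, fewer cells with a transcript and less transcript per cell cannot be told apart.

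Growth factor receptors such as EGFR pass their signal through RAS, RAF and MEK to the kinases ERK1/2, which in turn induce transcripts of proteins that dampen the same pathway. SPRY1 to SPRY4 encode Sprouty proteins, which act between the receptor and RAF and have different effects on FGF and EGF signalling. SPRED1 to SPRED3 encode Sprouty-related proteins with an EVH1 domain, and SPRED1 brings the RAS-inactivating protein neurofibromin (NF1) to the membrane. IL17RD, also called SEF, encodes a transmembrane protein that holds back FGF receptor signalling and active ERK. Several of these genes are themselves transcribed in response to ERK, so that their transcripts are used as a readout of pathway activity.

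The libraries held 3881841 to 8540815 counts after 6 h and 6646227 to 33070903 after 24 h. Between libraries of a group, the biological coefficient of variation was 10.6% after 6 h and 29.1% after 24 h. After 24 h, 8.90% to 57.2% of the counts lay on U1 small nuclear RNA genes and only 20.8% to 63.4% on protein-coding genes, compared with 81.4% to 84.7% after 6 h. Levels are therefore compared within a time point only. All 6 markers chosen for HEK293 cells had counts in each group, but not all at a clear level. PAX2 averaged at most 0.740 FPM in any group, with 0 counts in some libraries. In control libraries after 6 h KRT8 averaged 9.95 and KRT18 3.51 FPM. The fibroblast markers COL1A1 and COL3A1 averaged 17.0 and 24.2 FPM there. Of 8 markers of other cell types, 7 were in the tables, with a summed level of 17.5 to 64.5 FPM (fragment counts relative to library size, with TMM scaling) over all libraries, most of it from COL1A1 and COL3A1. After 6 h the HEK293 markers summed to 1172 to 1299 FPM in control, 1106 to 1256 FPM with AII, 1252 to 1432 FPM with EGF and 1421 to 1592 FPM with AII+EGF. After 24 h they summed to 1844 to 2070 FPM in control, 1742 to 2060 FPM with AII, 3277 to 4346 FPM with EGF and 2910 to 3196 FPM with AII+EGF. Most of this rise lay in 1 marker, NEFM, with means of 1382 FPM in control, 3093 FPM with EGF and 2424 FPM with AII+EGF. Mean NEFL was 363, 483 and 445 FPM and mean VIM 175, 197 and 190 FPM in these groups. After 6 h the means were 443, 670 and 737 FPM for NEFM, 457, 422 and 447 FPM for NEFL and 312, 270 and 294 FPM for VIM. The part of these differences in the results was not tested. AGTR1 had 1096 ± 106 FPM (SD, n = 4) in control libraries after 6 h, 1388 ± 93.2 FPM with AII, 1097 ± 94.6 FPM with EGF and 1497 ± 76.0 FPM with AII+EGF. Against control the log2 fold change of AGTR1 was 0.34 with AII (adjusted p = 0.987, edgeR), 0.00 with EGF (0.996) and 0.45 with AII+EGF (5.0e-04), and AII+EGF against EGF gave 0.45 (0.093). The part of the AGTR1 level in the comparisons with AII was not tested.

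Levels of different genes are compared per kilobase of their merged exons. The exons come from a GENCODE annotation on GRCh37 and need not match the gene models used for counting. In control libraries after 6 h, SPRY1 had the highest level, 6.36 ± 1.13 FPM per kb (SD, n = 4). SPRED1 (3.46 ± 0.738), IL17RD (3.26 ± 0.122), SPRY2 (3.19 ± 0.639) and SPRED2 (3.12 ± 0.288 FPM per kb) followed, and these 4 did not differ beyond their spread. SPRY3 reached 0.368 ± 0.126, SPRED3 0.0983 ± 0.0321 and SPRY4 0.0189 ± 0.0379 FPM per kb. With EGF the order was led by SPRED2 with 8.88 ± 0.428 and SPRY1 with 8.73 ± 1.03 FPM per kb, which overlapped. SPRY4 and SPRED3 did not pass the filter on low counts at either time, so that 6 of the 8 genes were tested.

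In GRCh37, to which hg19 of the deposited tables corresponds, SPRED2 (ENSG00000198369) lies on chromosome 2 from 65537985 to 65659771 on the minus strand. SPRED1 (ENSG00000166068) lies on chromosome 15 from 38545037 to 38649450 on the plus strand. SPRY1 (ENSG00000164056) is on chromosome 4 from 124317950 to 124324915, plus strand, SPRY2 (ENSG00000136158) on chromosome 13 from 80910111 to 80915261, minus strand, and IL17RD (ENSG00000144730) on chromosome 3 from 57124010 to 57204334, minus strand. SPRY3 (ENSG00000168939, chromosome X, 154842233 to 155012121, plus strand) was the only member whose exons overlapped another gene, sharing 33 bases (0.312% of its exons) with TMLHE on the opposite strand, and whether counting used the strand is not stated. Of the 28 pairs of members, 2 shared any stretch of 30 bases between their transcripts, SPRED1 with SPRED3 (4 stretches) and SPRED1 with IL17RD (3 stretches). Only members were compared, so stretches shared with other parts of the genome, chromosome Y included, were not searched. Their part in the low level of SPRY3 was not tested.

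Promoter sequences of all 8 genes were available from RefSeq (GRCh38.p14), with 15 listed starts outside chromosome Y. In the 250 bases before each start, matches on either strand were searched for TGAATGAA, an octamer bound by the repressor CIC, and for CCGGAAG of ETS factors, CGCCCCCGC of EGR factors, TGACGTCA of CREB, TGAGTCA of AP-1 and the CArG box of SRF. These occurred in 1.4%, 8.52%, 4.72%, 1.65%, 4.2% and 1.16% of the 35116 promoters of that length. Of the 15 starts, 3 had any match, and the share of all promoters with any match was not determined. SPRED2 is shown as the tested gene with the largest log2 fold change under EGF after 6 h, and the second start of SPRY1 and the first of SPRY2 as those with EGR or ETS letters. Capitals mark the matches, EGR in SPRY2 and ETS followed by EGR (as the reverse complement) in SPRY1. The sequences run 5′ to 3′ on the gene's strand, chr2:65432600-65432849 (minus), chr13:80341127-80341376 (minus) and chr4:123398136-123398385 (plus).
SPRED2: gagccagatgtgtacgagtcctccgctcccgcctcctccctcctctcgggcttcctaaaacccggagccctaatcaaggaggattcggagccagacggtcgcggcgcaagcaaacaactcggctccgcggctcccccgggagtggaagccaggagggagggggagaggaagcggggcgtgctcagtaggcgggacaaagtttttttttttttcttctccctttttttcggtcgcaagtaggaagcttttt
SPRY2: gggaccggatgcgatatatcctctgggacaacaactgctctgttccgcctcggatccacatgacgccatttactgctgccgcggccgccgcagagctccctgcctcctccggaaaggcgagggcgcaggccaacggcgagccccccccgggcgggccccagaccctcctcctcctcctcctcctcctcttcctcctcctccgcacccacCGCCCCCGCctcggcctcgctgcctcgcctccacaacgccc
SPRY1: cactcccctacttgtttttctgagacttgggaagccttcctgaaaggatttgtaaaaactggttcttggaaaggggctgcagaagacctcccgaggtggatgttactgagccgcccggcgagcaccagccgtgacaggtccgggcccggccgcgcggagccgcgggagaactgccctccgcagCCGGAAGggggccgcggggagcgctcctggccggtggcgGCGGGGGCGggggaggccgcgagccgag
The SPRED2 window held none of these letters, the single start of SPRED1 and of SPRY4 had none either, and the third start with matches was the first of SPRED3, with the CIC and AP-1 letters. The SPRY1 and SPRY2 windows shown had a GC content of 68.0% and 70.4%, with a median of 58.0% over all promoters. A match describes letters and not binding.

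EGF raised both abundant SPRED transcripts after 6 h. SPRED2 had 15.03, 17.5, 17.2 and 18.9 FPM in the 4 control libraries and 49.3, 46.3, 51.9 and 48.0 FPM with EGF. The lowest EGF library lay far above the highest control library. The fold change was 2.83 (95% interval 2.46 to 3.25, log2 1.4997, SE 0.10, adjusted p = 4.6e-10, edgeR). SPRED1 had 35.4, 23.6, 24.1 and 24.1 FPM in control and 53.9, 51.6, 50.8 and 53.0 FPM with EGF, again without overlap, although 1 control library lay well above the other 3. Its fold change was 1.97 (1.69 to 2.30, log2 0.98, SE 0.11, adjusted p = 3.6e-06, edgeR), and without that control library the log2 fold change was 1.13. SPRED3 rested on 1 to 6 counts per EGF library and 2 to 5 per control library, and its summed counts gave a ratio of 0.806 with an exact counting interval of 0.344 to 1.89.

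Of the Sprouty genes, SPRY2 responded most among those tested. SPRY2 had 8.10, 10.0, 13.03 and 9.76 FPM in control and 18.1, 16.9, 14.7 and 19.4 FPM with EGF, and all EGF libraries exceeded all control libraries (fold change 1.68, 1.37 to 2.08, log2 0.75, SE 0.15, adjusted p = 0.0021, edgeR). SPRY1 had 22.9, 30.5, 20.3 and 27.1 FPM in control and 34.9, 36.2, 28.9 and 38.4 FPM with EGF, so that 1 EGF library lay within the control range. The fold change of SPRY1 was 1.37 (1.13 to 1.65), below the 1.5-fold limit, with an adjusted p of 0.041. This adjusted p rose to between 0.0502 and 0.127 when control library 1, 3 or 4, EGF library 1, 2 or 4, AII library 1 or 2 or AII+EGF library 1 was left out. SPRY3 had 2.31, 4.31, 3.45 and 5.46 FPM in control and 2.91, 1.20, 3.95 and 2.18 FPM with EGF, and the groups overlapped (log2 fold change -0.65, SE 0.34, adjusted p = 0.28).

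SPRY4 changed from nearly undetected to a low level. It had 0, 0, 0 and 3 counts in the control libraries and 8, 10, 7 and 12 counts with EGF, which correspond to 1.37, 1.49, 1.105 and 1.46 FPM. The ratio of the summed counts was 9.94, with an exact counting interval of 3.15 to 50.4 that covers counting error only. In a fit without the low-count filter the adjusted p was 0.0018 (edgeR), and the level stayed under the 5 FPM required for a call. With AII alone SPRY4 had 0 counts in all 4 libraries, where 3 counts would correspond to 0.480 to 0.787 FPM.

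IL17RD moved the other way. It had 30.3, 30.3, 31.4 and 32.7 FPM in control and 25.8, 19.9, 23.0 and 24.9 FPM with EGF, and every EGF library lay below every control library. Its level fell to 0.75-fold (0.632 to 0.89, log2 -0.42, SE 0.12, adjusted p = 0.038, edgeR), short of the 1.5-fold limit. The adjusted p rose to between 0.0507 and 0.119 without any 1 of the 4 control libraries, without EGF library 2, 3 or 4 or without AII+EGF library 2. In both library series, which are the runs of library numbers 1 to 8 and 9 to 16, the log2 difference was -0.41 and -0.42.

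At the limits of the study (FDR below 0.05, fold change above 1.5 and mean above 5 FPM in the group with the higher level), 3 of the 6 tested genes were called higher with EGF after 6 h, where 1.04% of 18618 tested genes were. By FDR alone 4 were higher and 1 lower, compared with 3.6% and 2.37% of all tested genes. The median log2 fold change was 0.60 over the 6 genes and -0.01 over all tested genes.

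**Figure D1:**
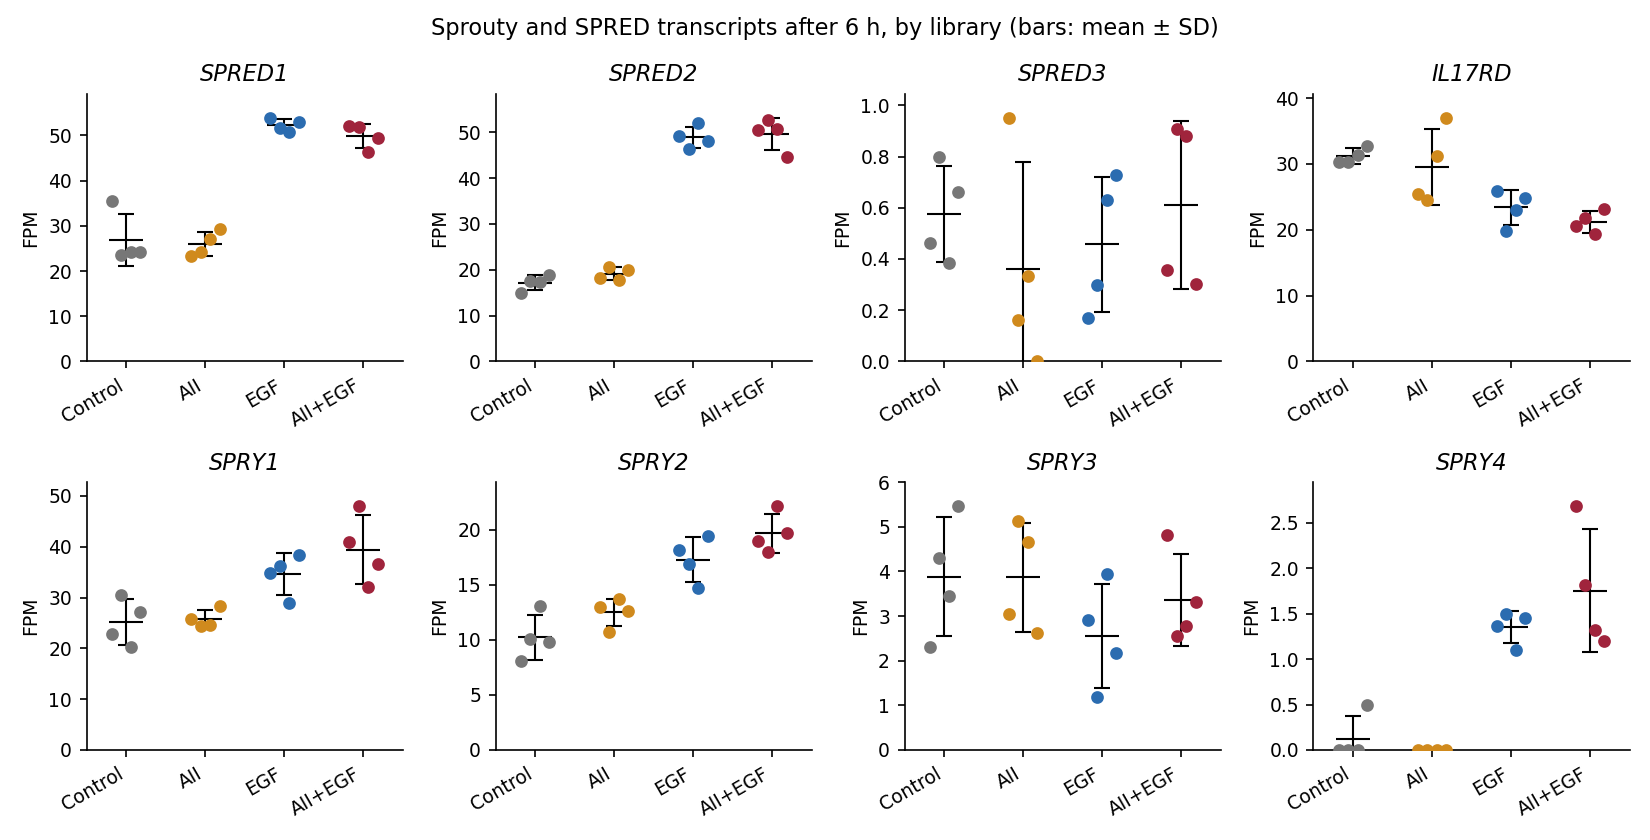
FPM (vertical axis, linear from 0) of each gene in each library after 6 h, by condition, with the mean and SD as bars, which are cut at 0. SPRED1, SPRED2, SPRY2 and SPRY4 with EGF or AII+EGF lie above all control libraries, and IL17RD lies below them.

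With AII+EGF the same members were called as with EGF, joined by SPRY1. The comparison of AII+EGF with control uses the same 4 control libraries as that of EGF. SPRED2 had 50.6, 52.7, 50.7 and 44.5 FPM (fold change 2.87, log2 1.52, SE 0.10, adjusted p = 3.8e-10, edgeR), and SPRED1 52.2, 51.8, 46.3 and 49.3 FPM (fold change 1.88, log2 0.91, SE 0.11, adjusted p = 1.0e-05). SPRY2 had 18.9, 17.98, 22.1 and 19.7 FPM (fold change 1.92, log2 0.94, SE 0.15, adjusted p = 1.7e-04). SPRY1 had 40.9, 47.9, 32.1 and 36.7 FPM, above all control libraries, and its fold change of 1.55 (1.28 to 1.87, adjusted p = 0.0038) lay just over the limit. Without AII+EGF library 2 or control library 3 the fold change of SPRY1 fell under the limit, with log2 values of 0.523 and 0.538, and 3 genes were called. Left out singly, other libraries gave up to 5 called members. The log2 fold change of IL17RD then reached -0.599, past the 1.5-fold limit. IL17RD had 20.6, 21.8, 19.3 and 23.2 FPM, below all control libraries (0.679-fold, 0.571 to 0.809, adjusted p = 0.0057). SPRY4 reached 15, 10, 9 and 8 counts, a ratio of 12.4 to control (3.98 to 62.8). SPRY3 had 4.83, 2.54, 2.78 and 3.31 FPM and SPRED3 2 to 6 counts, both overlapping with control. The 4 genes called higher compare with 1.39% of all tested genes, and by FDR alone 4 higher and 1 lower compare with 4% and 2.11%. Against AII in place of control, the same 4 genes were higher (1.39% of tested genes) and IL17RD was lower by FDR alone (2.01%). In that comparison the adjusted p of IL17RD was 0.024 (edgeR) and rose to between 0.059 and 0.098 without AII+EGF library 1 or 3 or AII library 3 or 4.

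**Figure D2:**
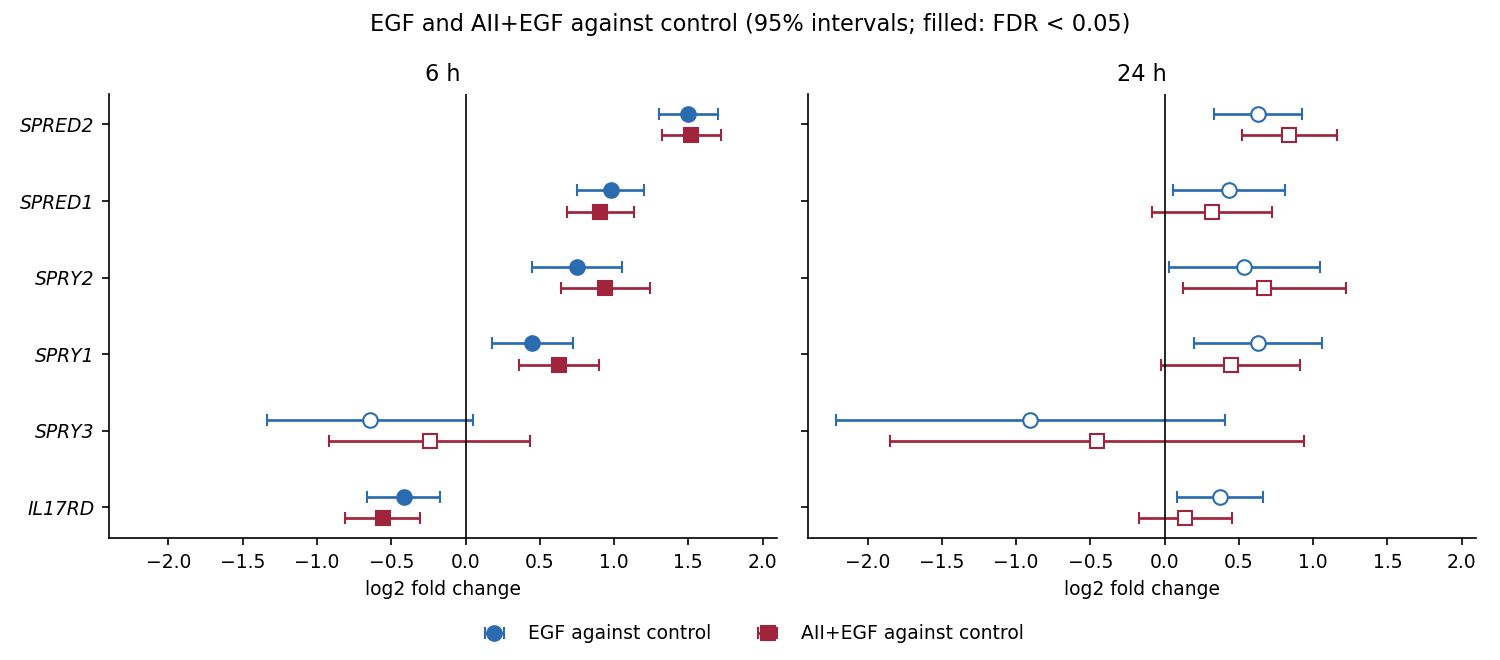
Log2 fold change against control (horizontal axis) with 95% intervals for the 6 tested genes, EGF as blue circles and AII+EGF as red squares, after 6 h (left) and 24 h (right). Filled symbols passed an FDR of 0.05: after 6 h SPRED2, SPRED1, SPRY2 and SPRY1 to the right of 0 and IL17RD to the left, after 24 h none.

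Whether AII adds to EGF was asked by comparing AII+EGF with EGF. None of the 6 tested genes was called after 6 h, nor was any of the 18618 genes that passed the low-count filter (0%) by edgeR, with 1352 of them at an unadjusted p under 0.05 and 1 at the FDR limit with DESeq2. Without the filter edgeR called 61 of 42566 genes by FDR, none of them a member. The log2 difference was 0.02 for SPRED2 (95% interval -0.16 to 0.20), -0.07 for SPRED1 (-0.28 to 0.14), 0.19 for SPRY2 (-0.09 to 0.46), 0.18 for SPRY1 (-0.08 to 0.44) and -0.14 for IL17RD (-0.40 to 0.11). For these 5 genes the interval excludes a further change of 1.5-fold in either direction, and for SPRY3 (0.40, -0.30 to 1.102) it does not. In exact two-sided permutation tests of FPM over the 8 genes, p ranged from 0.14 for SPRY2 to 0.74 for SPRED2, where 4 against 4 libraries allow no p below 0.029.

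With AII alone no member was called after 6 h. SPRED2 had 18.3, 20.6, 17.7 and 19.9 FPM with AII, which overlapped with control (log2 fold change 0.15, -0.07 to 0.37), and SPRY2 had 12.9, 10.7, 13.7 and 12.6 FPM (0.28, -0.04 to 0.60). SPRY1, SPRY3, SPRED1 and IL17RD differed by -0.09 to 0.01 on the log2 scale. None of the 6 was called (lowest adjusted p 0.987, edgeR), as was none of the 18618 genes tested (0%), although 845 of them, none a member, had an unadjusted p under 0.05. DESeq2 also called none, while edgeR without the low-count filter called 90 of 42566 genes by FDR, none of them a member. The interaction, by which AII+EGF would depart from both single effects added on the log2 scale, was called for none of the 6 (log2 -0.13 to 0.40, lowest adjusted p 0.81, edgeR). It was called for none of the 18618 genes tested either (0%) by edgeR, with 1491 of them, none a member, at an unadjusted p under 0.05. DESeq2 called 1 of these genes by FDR, not a member. Without the filter edgeR called it for 95 of 42566 genes by FDR, none of them a member.

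**Figure D3:**
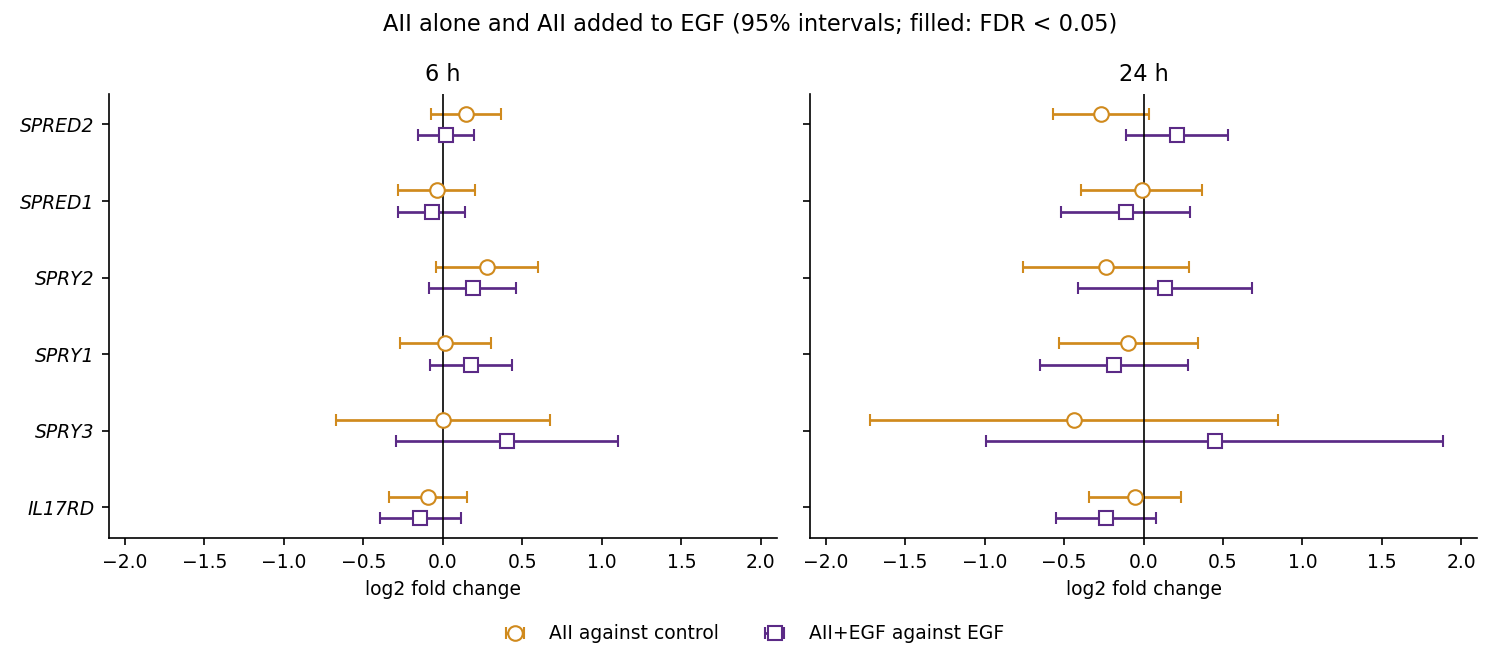
Log2 fold change (horizontal axis) with 95% intervals for AII against control (orange circles) and AII+EGF against EGF (purple squares) after 6 h (left) and 24 h (right). No symbol is filled, since none passed an FDR of 0.05, and the widest intervals are those of SPRY3.

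After 24 h SPRED2 had the lowest adjusted p of the tested members in both comparisons of EGF-treated with control libraries. Control libraries had 16.6, 18.8, 13.1 and 19.4 FPM, EGF libraries 26.2, 25.2, 28.5 and 25.0 FPM, and AII+EGF libraries 31.2, 28.0 and 31.8 FPM. Each EGF-treated library exceeded each control library, yet among all genes the adjusted p was 0.15 for EGF (fold change 1.55, 1.26 to 1.90) and 0.054 for AII+EGF (1.79, 1.43 to 2.24; edgeR). With AII alone SPRED2 had 14.2, 11.96, 13.6 and 16.9 FPM, and AII+EGF exceeded AII 2.16-fold (1.72 to 2.70, log2 1.11, SE 0.16, adjusted p = 0.0027). This was the only call among the members after 24 h, where 0.0406% of 22174 tested genes were called higher.

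None of the other members was called after 24 h. SPRY2 had 2.70, 4.999, 4.78 and 4.66 FPM in control and 6.00, 5.50, 5.99 and 7.54 FPM with EGF, without overlap (log2 fold change 0.54, SE 0.25, adjusted p = 0.56, edgeR). Without the lowest control library, which stood apart, the log2 fold change of SPRY2 was 0.378. SPRY1 had 12.5, 19.9, 12.5 and 10.98 FPM in control and 29.9, 21.4, 16.3 and 19.6 FPM with EGF, with overlap (0.63, SE 0.21, adjusted p = 0.37). SPRED1 had 10.8, 7.61, 8.39 and 9.37 FPM in control and 11.9, 15.2, 9.14 and 12.5 FPM with EGF (0.43, SE 0.18, adjusted p = 0.51). For SPRY4, control libraries held 3, 2, 4 and 1 counts, EGF libraries 7, 5, 10 and 5, and AII+EGF libraries 18, 5 and 12, with ratios of summed counts of 3.43 (1.61 to 7.94) and 5.34 (2.59 to 12.1). Without the filter its adjusted p was 0.69 and 0.89. IL17RD had 15.6, 18.7, 16.6 and 14.3 FPM in control and 22.5, 20.7, 22.2 and 19.1 FPM with EGF, and here every EGF library lay above every control library (log2 fold change 0.38, 0.09 to 0.66, adjusted p = 0.45, edgeR). With AII+EGF IL17RD had 17.6, 15.7 and 20.2 FPM, which overlapped with control (0.14, -0.18 to 0.45). SPRY3 and SPRED3 had at most 4.02 and 1.31 FPM in any library, with overlapping groups.

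**Figure D4:**
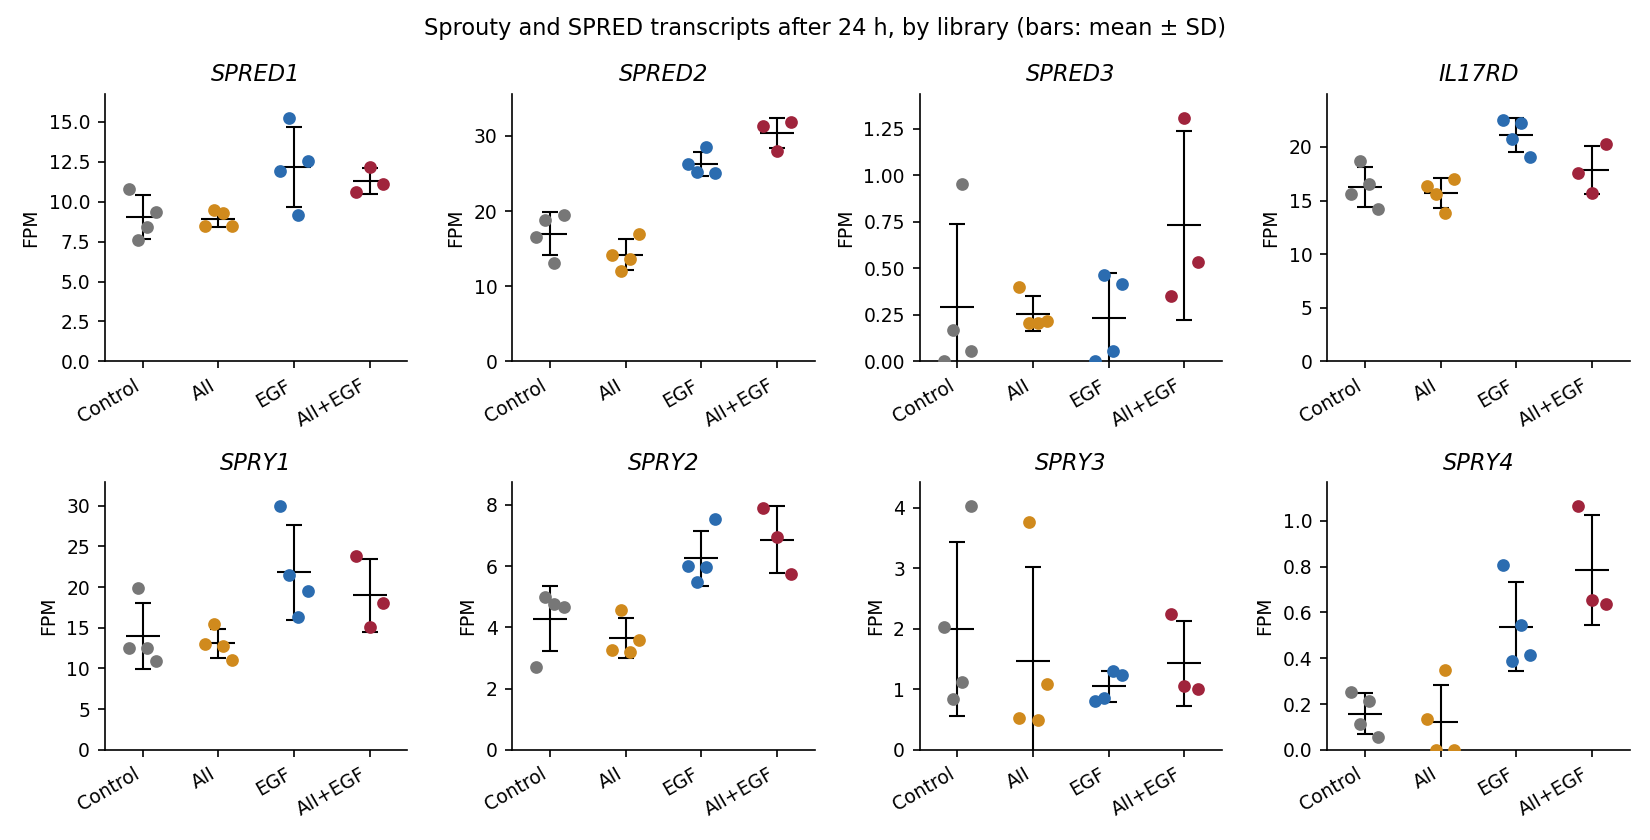
FPM (vertical axis, linear from 0) of each gene in each library after 24 h, by condition, with the mean and SD as bars, which are cut at 0. SPRED2, SPRY2 and, at low counts, SPRY4 with EGF or AII+EGF lie above all control libraries, and IL17RD with EGF does too.

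For EGF against control after 24 h, edgeR called none of the 6 members (0.0316% of all genes). Of the members 5 had an unadjusted p under 0.05, as had 1881 of all 22174 genes. DESeq2 called SPRED2 (adjusted p = 0.013) among 55 genes of 22174. For AII+EGF against control edgeR called no member (0.0271% of all genes), with 2 members and 1198 of all 22174 genes at an unadjusted p under 0.05. Here DESeq2 called SPRED2 (adjusted p = 4.1e-04) among 31 genes of 22174. For AII against control and AII+EGF against EGF after 24 h, neither tool called a member, and edgeR called none of the 22174 genes that passed the filter (0% in each). No member had an unadjusted p under 0.05, while 552 and 747 of these genes had. Without the filter edgeR called 31 and 65 of 44398 genes by FDR, none of them a member. The interaction after 24 h was called for none of the 6 and none of the 22174 genes (0%) by either tool. SPRED2 had a log2 value of 0.48 (95% interval 0.04 to 0.92, unadjusted p = 0.035 and adjusted p = 0.99996 in edgeR). It was the only member with an unadjusted p under 0.05, as had 525 of all genes. The share of U1 counts, the level of the HEK293 markers and the wide spread between these libraries stand beside all 24 h values, and their part in the missing calls was not tested.

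Whether the response differed between the time points was tested on the effects, not the levels, in a fit of all 31 libraries in which SPRY4 also passed the filter. The EGF effect on SPRED2 was smaller after 24 h than after 6 h by 0.88 on the log2 scale (95% interval -1.21 to -0.54, adjusted p = 0.013, edgeR), the single call among 7 members, where 0.073% of 21932 genes were called in that direction. For IL17RD, with log2 fold changes under EGF of -0.42 after 6 h and 0.38 after 24 h, of which the latter did not pass the test, the difference was 0.79 (0.42 to 1.15) with an adjusted p of 0.053 (edgeR). It passed the limit with DESeq2 (0.0085), with DESeq2 size factors (0.0496), on protein-coding genes only (0.0322) and after blocking by library series (0.0192). Without the low-count filter it did not pass (0.162, edgeR). With 1 library left out, the adjusted p of IL17RD ranged from 0.0296 to 0.169 (edgeR). With AII+EGF none was called (0.123% of all genes), although 3 of the 7 had an unadjusted p under 0.05, as had 1642 of 21932 genes. DESeq2 called SPRED2 with an adjusted p of 0.0498, among 55 genes of 21932. The differences there were -0.70 for SPRED2 (adjusted p = 0.11), 0.68 for IL17RD (0.19) and -0.60 for SPRED1 (0.40). Library preparation and time cannot be told apart, because each time point has its own libraries.

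Genes around the members in the pathway were described by lists, beside which 4% of all tested genes were higher and 2.11% lower by FDR with AII+EGF after 6 h. With AII+EGF after 6 h, 3 of 7 tested feedback inhibitors outside the family were higher by FDR, the ERK phosphatase genes DUSP5 (log2 fold change 1.83) and DUSP4 (0.91) and the EGFR inhibitor gene ERRFI1 (0.50). Of 9 transcription factor genes, 7 were higher. ETV5, an ETS factor of the PEA3 group, rose from 0.138 ± 0.163 FPM (SD, n = 4) to 7.82 ± 1.43 FPM under EGF and 9.20 ± 2.42 FPM under AII+EGF. WT1 (1.11) and the ETS repressor gene ERF (0.60, 1.52-fold) were also called at the limits of the study. ETV1 and ETV4, the other PEA3 genes, stayed under 5 FPM, with 4.60 ± 2.02 and 2.88 ± 0.561 FPM. ELK1 (0.51) and ETS2 (0.37) stayed under 1.5-fold. Of 7 tested ERK-responsive transcripts 5 were higher and 1 lower, with EPHA2 at 1.32 and CCND1 at 0.56, and EPHA4 at -0.39. PHLDA1 was neither, with means of 4.55 FPM in control, 4.11 FPM with EGF and 4.42 FPM with AII+EGF. DUSP6, also in this list, did not pass the low-count filter, with 0.886, 1.08 and 1.81 FPM in these groups. In these lists ETV4, ETV5, DUSP4 and DUSP6 stand in 2 lists each. ERRFI1, ETV1, ETV4, ELK1, ETS2, CCND1, EPHA4, PHLDA1, DUSP6 and the genes EGFR, MAP2K1, RPS6KA3 and CBL of the next lists were named after their values were seen.

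The kinases and adaptors of the pathway itself are read against the same 4% of all tested genes higher by FDR. Of 20 genes from receptor to RAS, 1 was higher (EGFR, log2 fold change 0.41), of 12 from RAF to ERK 2 (MAP2K1 0.50 and RPS6KA3 0.31), and of 15 partners of Sprouty or SPRED proteins 1 (CBL 0.25, the ubiquitin ligase that Sprouty proteins bind). None of these 4 reached 1.5-fold, and RPS6KA2 fell with EGF alone (-0.60, adjusted p = 0.0077, edgeR). The median log2 fold change with AII+EGF was 0.39, 0.60 and 0.91 in the inhibitor, transcription factor and responsive lists, 0.07, 0.01 and 0.08 in the receptor, kinase and partner lists, 0.77 over the 6 tested members and -0.01 over all genes. After 24 h no gene of these lists was called against control.

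**Figure D5:**
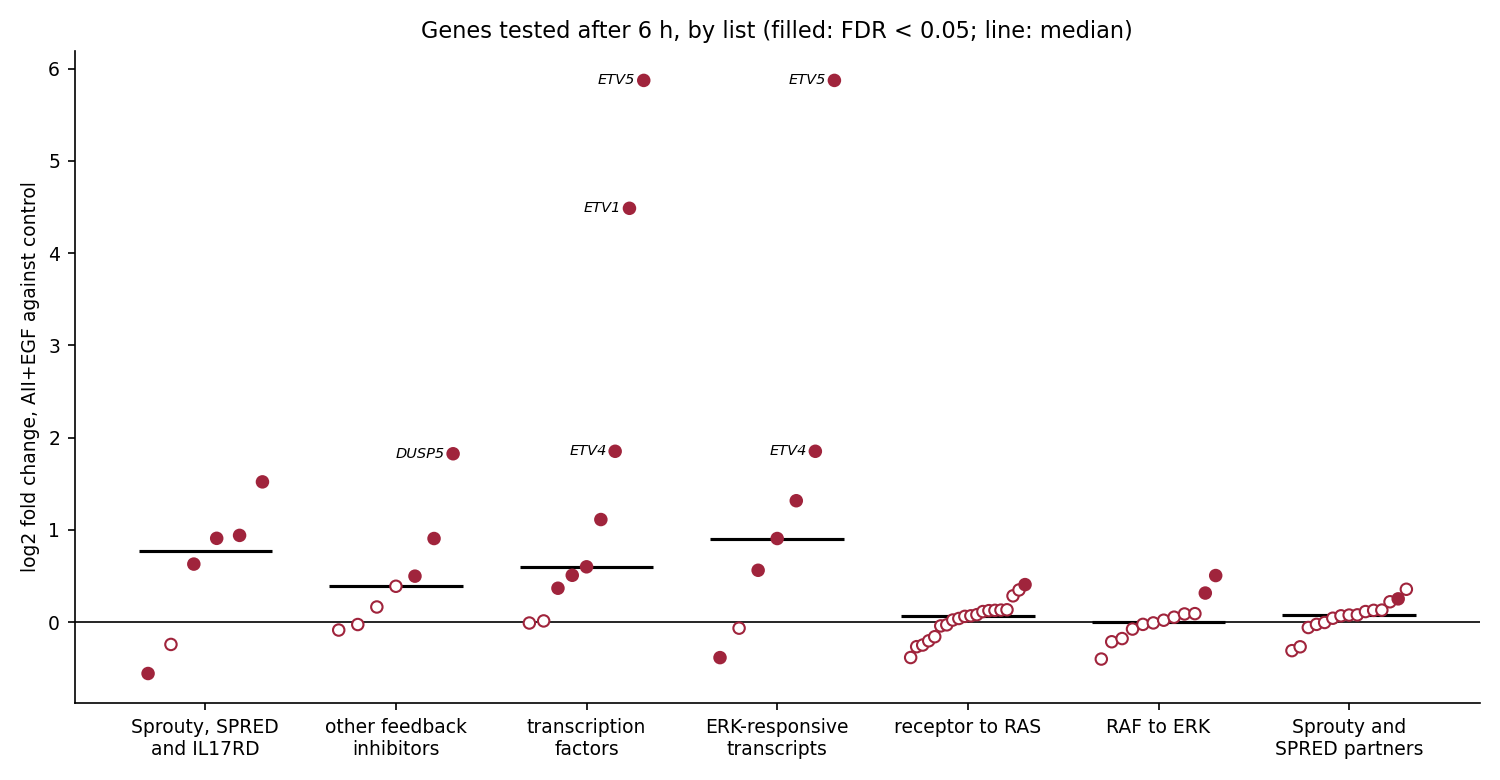
Log2 fold change of AII+EGF against control after 6 h (vertical axis) for the tested members and the genes of 6 lists, with the median as a line. Filled points passed an FDR of 0.05, and ETV5, at 5.87, is the highest in both lists that hold it.

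Over the 16 libraries after 6 h, the log2 levels of SPRED1 and SPRED2 had a Pearson correlation of 0.93, and those of SPRED2 and SPRY2 of 0.87, while IL17RD and SPRED2 had -0.81 and SPRY3 and SPRED2 -0.33. Among 13000 other genes above 5 FPM, those most like SPRED2 were EGR1 (0.996), KCTD12 (0.990) and ENDOD1 (0.978). For SPRED1 they were INSIG1 (0.976), ODC1 (0.962) and HSPA8 (0.957), for SPRY2 SLC7A1 (0.948), PGAM1 (0.935) and ELK1 (0.930), and for SPRY1 PFKFB3 (0.949), MFGE8 (0.925) and COBL (0.918). The points share the treatment groups and library depth, so that these values describe likeness across the 4 conditions.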

How the data were processed

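Total RNA of transfected HEK293 cells was depleted of ribosomal RNA and sequenced in pairs. The authors deposited raw counts per gene in 1 table per time point. The submitters' processing notes name Trim Galore, cutadapt 1.8.1, TopHat2 2.0.14, featureCounts 1.4.6 and hg19; the strand setting is not given in the sources used here. Of 32 libraries in the labels 31 were used, since AII+EGF library 2 after 24 h has no column in the table and is not used here. The 24 h columns named as filtered are all those of the library series from number 1 on and 1 of the other series, with no further description. This naming thus nearly coincides with the library series, which the main fit did not block.

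Counts were tested with edgeR 4.0.16 (R 4.3.3; quasi-likelihood, TMM factors, filterByExpr), in 1 fit per time point over 4 conditions, with Benjamini-Hochberg adjustment over all genes tested. Levels are FPM from the TMM-scaled totals. Calls follow the study's limits, namely FDR below 0.05, fold change above 1.5 and mean above 5 FPM, here in the group with the higher level, as the methods state for the stably transfected cells but not for the transiently transfected ones. Differences between time points came from 1 fit of all libraries. Fits were tested on simulated data. DESeq2 1.42.0, its size factors, no low-count filter, protein-coding genes only, the library series as a block and each library left out were tried as alternatives. Permutation tests are exact and two-sided, and those of EGF and AII+EGF against control were added after seeing the data. Intervals of summed counts are exact at 95% and cover counting error only. The libraries of a group are not stated to come from separate cultures, so that p-values measure the spread between libraries, which may be technical. No pair of libraries agreed within sampling noise.

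The members and lists were chosen with earlier results of these data known. Named genes are the members, list genes called with EGF or AII+EGF against control, the 3 genes most like each called member (Pearson correlation of log2 FPM with a prior count of 2, among tested genes above 5 FPM) and AGTR1. Some other list genes and cell markers were named after their values were seen.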

Additional observations from a re-analysis of the deposited data

Results flagged for a closer look

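In 4 of 55 groups of 4 libraries, 1 library stood apart from the other 3 by the gap to its neighbour divided by the range. Chance alone would give about 2.75 if values were normally distributed. That rate need not hold for SPRY4 and SPRED3, whose few counts are often tied. SPRY4 in control after 6 h had this ratio at 1, because 1 library held 3 counts and the others 0. SPRED1 in control after 6 h reached 0.954, from 1 library at 35.4 FPM. SPRY2 in control after 24 h reached 0.85, from 1 low library at 2.70 FPM. SPRED3 with AII after 24 h reached 0.939, from 1 library at 0.399 FPM that rests on 6 counts.

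The EGF effect on SPRED2 differed between the time points by -0.876 on the log2 scale, 24 h minus 6 h, in the test of the difference itself (adjusted p = 0.013, edgeR). It was a log2 fold change of 1.4997 after 6 h and 0.63 after 24 h.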

How the results depend on the processing

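No paired analysis was possible because only library numbers are labelled, with no replicate number shared between groups. The 3 members called with EGF after 6 h became 5 by FDR alone, with SPRY1 and IL17RD. Among all 18618 tested genes the calls rose from 322 to 1112 in the same step. For EGF after 24 h the count rose from 0 to 1 with DESeq2, and for AII+EGF after 24 h from 0 to 1 with DESeq2, with no low-count filter, on protein-coding genes only and after blocking by library series, each time SPRED2 (adjusted p 4.06e-04, 0.00205, 0.0326 and 0.0202). Calls among all genes rose too, for EGF from 7 to 55 of 22174 with DESeq2. For AII+EGF they rose from 6 to 31 of 22174 with DESeq2 and to 32 with the block. Without the filter 121 of 44398 genes were called, and on protein-coding genes 15 of 14294. For the EGF effect at 24 h minus 6 h the count of members rose from 1 to 2 with DESeq2, DESeq2 size factors, protein-coding genes and the block, each time with IL17RD, and for AII+EGF from 0 to 1 with DESeq2. Without the low-count filter the EGF count stayed at 1. Among all genes the EGF calls went from 33 to 85 of 21932 with DESeq2, 35 with its size factors and 63 with the block. On protein-coding genes they were 53 of 14284. For AII+EGF they went from 24 to 55 of 21932 with DESeq2. The causes were not tested. After 6 h, leaving out 1 library gave 3 to 5 called members for AII+EGF against control and 3 to 4 against AII. With 1 library left out, the members called ranged from 0 to 1 for AII+EGF after 24 h (SPRED2 without control library 2, adjusted p = 0.0478), from 1 to 2 for the EGF difference (IL17RD added without control library 2, EGF library 4 or AII library 3 of 24 h or AII library 4 of 6 h) and from 0 to 1 for the AII+EGF difference (SPRED2 without control library 3 of 24 h).

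No reversed value passed the test in either direction. SPRY3 turned in sign for AII after 6 h with DESeq2 (-0.0026) and its size factors (-0.00127), for AII+EGF against AII after 24 h with the block (0.0192), and for the FPM difference of AII after 6 h without TMM factors (0.0276). With 1 library left out, the log2 values that turned ranged as follows. For AII after 6 h SPRY1 ranged from -0.0762 to 0.123, SPRY3 from -0.164 to 0.208 and SPRED1 from -0.0942 to 0.11, and for AII+EGF against EGF SPRED2 from -0.0139 to 0.0741. For AII after 24 h SPRY1 ranged from -0.196 to 0.129, SPRY3 from -1.54 to 0.171, SPRED1 from -0.0864 to 0.0807 and IL17RD from -0.113 to 0.0195. After 24 h SPRY3 ranged from -0.952 to 0.149 for AII+EGF and from -0.515 to 1.08 for AII+EGF against AII. For AII+EGF against EGF SPRY1 ranged from -0.381 to 0.000715, SPRY3 from -0.046 to 0.668 and SPRED1 from -0.233 to 0.0158. In the EGF difference between times SPRY1 ranged from -0.0167 to 0.399 and SPRY3 from -0.533 to 0.34, and in that of AII+EGF SPRY1 from -0.4 to 0.0239 and SPRY3 from -0.742 to 0.373. Low counts limit SPRY4 and SPRED3, of which 3 counts correspond to 0.364 to 0.787 FPM after 6 h.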
